A study of Mus musculus with 6 samples.

Results

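Tumour RNA was examined for 8 genes of the spindle pole, the spindle midzone and cytokinesis, among 53801 gene identifiers counted in 6 mouse melanomas. The members were *Aspm*, *Numa1* and *Cep41* at spindle poles and centrosomes, *Racgap1* and *Prc1* at the central spindle, and *Ect2*, *Anln* and *Cit* at the cleavage furrow and midbody. They were listed by name, and kinesin motors were left out of the list. *Aspm*, *Racgap1* and *Cep41* entered it because the study's own gene table names them for a difference between the same 2 groups, so their differences are given as a description without a test. The other 5, *Ect2*, *Anln*, *Prc1*, *Cit* and *Numa1*, are their partners in cell division, and the question was whether these partners moved with *Aspm* and *Racgap1*.

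Male, wild type C57BL/6 mice aged 10 to 12 weeks received B16-F10 mouse melanoma cells under the skin, and RNA was taken from pieces of the grown tumours. In the SEVO group (n = 3 tumours) the cells had first been primed with sevoflurane, a volatile anaesthetic, at 2% during a flush of 30min and a further 2h of incubation. The CTRL group (n = 3) received cells that had not been primed. Mice given primed cells were not anaesthetised for the injection. All tumours come from 1 cell line, and a piece of tumour also holds cells of the host.

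At mitosis, dynein and its adaptor NuMA (*Numa1*) gather microtubule minus ends at the poles, where the ASPM protein also binds them. In anaphase, PRC1 bundles antiparallel microtubules between the parting chromosomes, and centralspindlin, a complex of the RACGAP1 protein with the kinesin KIF23, recruits ECT2, the exchange factor that switches on the GTPase RhoA at the cell equator. RhoA and the scaffold anillin (*Anln*) organise the contractile ring, citron kinase (*Cit*) stabilises the midbody that remains, and CEP41 acts at centrioles and cilia in the glutamylation of tubulin. Many genes of this kind are transcribed late in the cell cycle, through a promoter element called the cell cycle genes homology region (CHR) that often stands with CCAAT boxes.

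The promoters are shown first, because matches to the CHR divide the windows scanned for the 8 genes. Each is 250 bases before and 50 bases from a RefSeq start site on GRCm38.p6, and for *Ect2* and *Prc1*, which have 2 such sites, 1 is printed. The shares of all genes are over 27025 genes with an entry. The motif TTTGAA, the usual letters of the CHR, lay on either strand in 5 of the 8 promoters (*Aspm*, *Racgap1*, *Ect2*, *Prc1*, *Anln*), against 18.1% of all genes. In all 5 it lay on the coding strand within the last 50 bases before the start site or the 50 bases from it, where 2.62% of all genes had it. CCAAT was found on either strand in 5 promoters (*Aspm*, *Racgap1*, *Ect2*, *Prc1*, *Cep41*), against 37.9% of all genes, and 4 members held both motifs, against 7.12%. The variant TTCGAA and the E2F letters TTCCCGCC and TTTGGCGC were found in none of the 8. The windows of *Cit* and *Numa1* held none of these motifs. Their start sites lie inside the GENCODE gene, by 378 bases for *Cit* and 35732 bases for *Numa1*. Neither window reaches the GENCODE gene start, so the bases before it were not scanned for these 2 genes. A match of letters is not evidence that a factor binds there. Capitals mark TTTGAA and CCAAT on either strand (TTCAAA and ATTGG when read on the other), and all sequences read in the direction of transcription.
Aspm, chr1:139454523-139454822, plus strand: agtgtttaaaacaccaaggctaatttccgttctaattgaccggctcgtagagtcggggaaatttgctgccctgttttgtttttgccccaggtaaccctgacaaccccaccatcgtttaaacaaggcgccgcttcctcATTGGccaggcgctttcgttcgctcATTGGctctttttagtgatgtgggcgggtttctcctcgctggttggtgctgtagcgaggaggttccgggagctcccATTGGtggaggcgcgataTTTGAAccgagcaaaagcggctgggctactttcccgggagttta
Racgap1, chr15:99651607-99651906, minus strand: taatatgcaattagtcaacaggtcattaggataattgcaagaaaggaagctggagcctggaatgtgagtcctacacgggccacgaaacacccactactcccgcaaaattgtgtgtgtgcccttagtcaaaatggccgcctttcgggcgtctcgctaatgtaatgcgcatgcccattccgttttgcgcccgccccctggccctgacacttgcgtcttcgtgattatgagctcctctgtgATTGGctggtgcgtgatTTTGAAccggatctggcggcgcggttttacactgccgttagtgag
Ect2, chr3:27153829-27154128, minus strand: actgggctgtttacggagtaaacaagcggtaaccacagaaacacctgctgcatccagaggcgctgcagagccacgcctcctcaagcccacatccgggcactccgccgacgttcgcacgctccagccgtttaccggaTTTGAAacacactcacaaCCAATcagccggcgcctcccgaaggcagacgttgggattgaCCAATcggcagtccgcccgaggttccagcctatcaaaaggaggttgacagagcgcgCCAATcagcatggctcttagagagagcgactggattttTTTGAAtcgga
Prc1, chr7:80294201-80294500, plus strand: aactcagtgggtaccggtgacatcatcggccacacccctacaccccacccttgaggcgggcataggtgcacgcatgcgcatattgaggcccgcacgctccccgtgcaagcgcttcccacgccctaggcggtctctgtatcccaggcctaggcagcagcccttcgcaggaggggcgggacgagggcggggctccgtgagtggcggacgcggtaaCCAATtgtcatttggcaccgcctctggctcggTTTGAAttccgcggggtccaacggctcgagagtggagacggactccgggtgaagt
Anln, chr9:22389157-22389456, minus strand: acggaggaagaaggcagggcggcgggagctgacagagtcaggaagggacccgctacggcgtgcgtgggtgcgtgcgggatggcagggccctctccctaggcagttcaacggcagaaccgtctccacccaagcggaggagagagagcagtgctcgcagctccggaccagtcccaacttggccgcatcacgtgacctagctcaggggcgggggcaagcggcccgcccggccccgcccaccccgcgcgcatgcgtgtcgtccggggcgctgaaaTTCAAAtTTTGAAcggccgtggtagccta
In *Racgap1* the CHR began 6 bases and in *Aspm* 7 bases from the start site, counting the start site as base 1, and in both an inverted CCAAT box began 12 bases before it. *Prc1*, the member with the higher mean in SEVO tumours, held its CHR 5 bases before the start site, and *Anln* held 1 copy on each strand.

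Depth was low for the members. Gene counts summed to 723431 to 1348676 reads a tumour, 2.06% to 4.61% of the uniquely aligned reads. The predicted genes Gm10800 and Gm10801 together took 49.02%, 1.31% and 35.5% of these reads in CTRL tumours 1 to 3 and 7.97%, 8.71% and 18.7% in SEVO tumours 1 to 3. Over the 6 tumours the members had from 46 (*Cep41*) to 499 reads (*Prc1*), where the median of the 7561 tested genes was 141. The strand setting of the counting is not given in the sources used here. In every tumour the light-strand gene mt-Nd6 had 5.31 to 12.5 times the read density of the other mitochondrial protein genes (median), as given below. Whether the counts come from the strand of the transcripts or from the opposite one was not tested. Each count below is therefore of reads assigned to a gene, and its reading as that gene's transcript rests on a setting that was not tested. The labels name monocytes as the cell type but tumour as the source. All 7 melanocyte markers passed the filter on low counts, while of 10 monocyte and macrophage markers only *Csf1r* and *Cd68* did. Replicates are separate tumours. No source says that tumours of a group came from separate cultures of the cell line. Values are given as CPM, read counts divided by the library size after scaling with edgeR's TMM method, and differences as log2 fold changes of SEVO minus CTRL with standard errors from the quasi-likelihood fit.

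*Aspm* and *Racgap1*, which chose the list, had fewer reads in the SEVO tumours. *Aspm* (ENSMUSG00000033952.14, chromosome 1, 139454772 to 139494091, plus strand, 27 merged exon blocks) had 33, 12 and 37 reads in CTRL tumours 1 to 3 and 1, 7 and 13 reads in SEVO tumours 1 to 3. These were 40.1, 15.1 and 42.5 CPM against 1.15, 7.51 and 14.2 CPM. The groups did not overlap, which was so with SEVO below CTRL in 4.39% of all tested genes, but CTRL tumour 2 and SEVO tumour 3 lay within 1 CPM of each other. The log2 fold change was -2.07 (standard error 0.69), from a mean of 32.5 ± 15.2 CPM (SD, n = 3) to 7.61 ± 6.51 CPM (SD, n = 3). The single read in SEVO tumour 1 has an exact Poisson 95% interval of 0.0253 to 5.57 reads, and such intervals cover counting error only.

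*Racgap1* (ENSMUSG00000023015.13, chromosome 15, 99620496 to 99651656, minus strand), a GTPase-activating protein, had 35, 10 and 30 reads in CTRL and 2, 4 and 13 reads in SEVO tumours. In CPM these were 42.5, 12.5 and 34.4 against 2.30, 4.29 and 14.2. SEVO tumour 3 lay above CTRL tumour 2, so the groups overlapped. The log2 fold change was -2.08 (standard error 0.70). Across the 6 tumours the profiles of both genes were close. With log2 CPM centred on each gene, the root mean square difference between them was 0.31. *Racgap1* was the third nearest of 7560 genes to *Aspm*, where the median tested gene lay at 1.33. Seen from *Racgap1*, *Aspm* was number 20. Both genes were listed for a difference between the same groups, which this distance includes, so their closeness is no independent support.

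*Cep41* (ENSMUSG00000029790.16, chromosome 6, 30653457 to 30693749, minus strand) had too few reads for the filter. It had 35, 2 and 5 reads in CTRL and 0, 1 and 3 reads in SEVO tumours. CTRL tumour 1 alone held 35 of its 46 reads, and the other 5 tumours had 5 reads or fewer. Its log2 fold change was -2.65 (standard error 0.94) when all 42423 genes with any read were fitted. In that fit the median of all genes was -0.38, *Aspm* had -1.56, *Racgap1* -1.54, *Numa1* 0.42 and *Prc1* 0.86. It was -1.28 without CTRL tumour 1 and -3.75 without SEVO tumour 3.

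**Figure D1:**
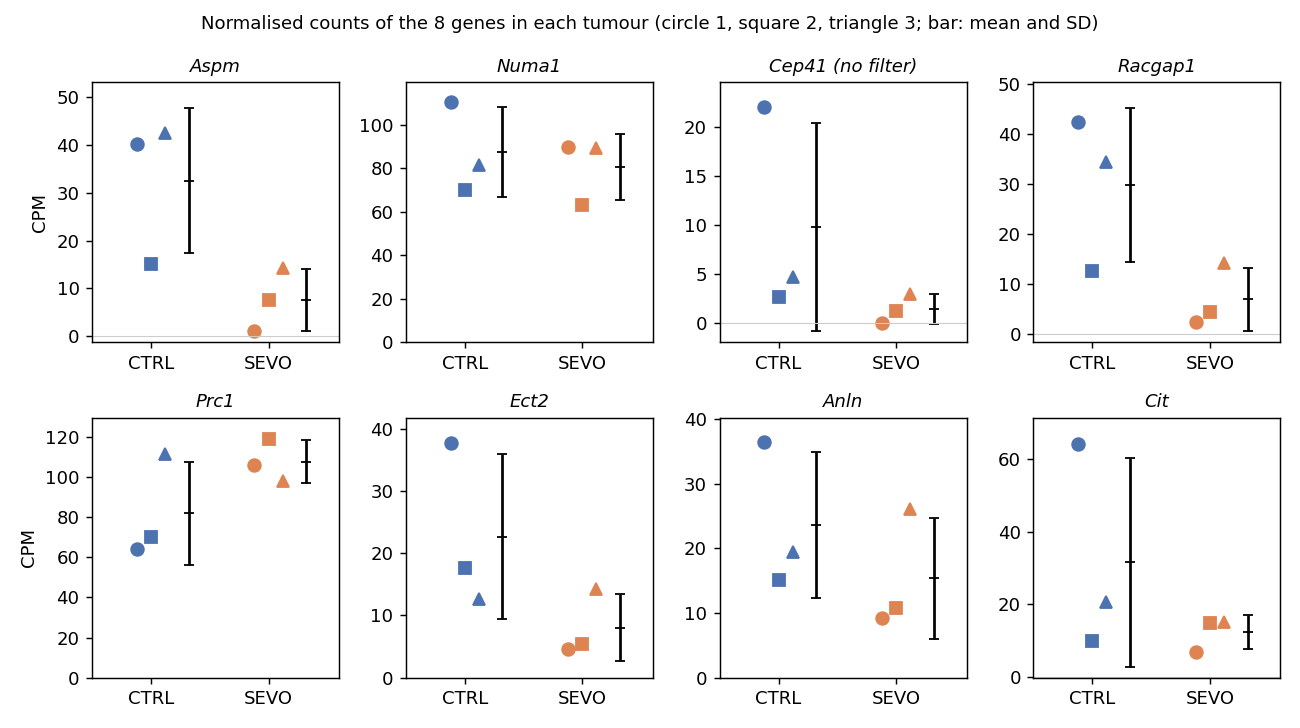
CPM of the 8 genes in each tumour (y axis, linear), with CTRL in blue and SEVO in orange, replicate number by symbol, and mean and SD as the black bar. *Prc1* and *Numa1* lie between 63.3 and 119 CPM in every tumour, *Aspm* alone separates the groups, and CTRL tumour 1 is the highest point in 6 of the 8 panels. *Cep41* is scaled in the fit without a filter.

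None of the 5 partners passed the tests. All 5 had enough reads to be tested, and 0 of 5 had an adjusted p under 0.05 in edgeR's quasi-likelihood test (0% of all 7561 tested genes, with 330 genes at an unadjusted p under 0.05) or passed the study's thresholds, an unadjusted p below 0.02 with a change of at least 1.5-fold (1.04% of all tested genes). The groups separated in CPM in 0 of 5, against 8.56% of all tested genes, 4.39% with SEVO below CTRL and 4.17% with SEVO above. Of the partners, 4 of 5 had a value below 0, against 51.1% of all tested genes, and their median log2 fold change was -0.62, against -0.02 over all tested genes. Tested protein-coding genes differed by whether any of their exon bases lie opposite exons of another gene. Of those with none, like *Ect2*, *Anln* and *Cit*, 79.6% were lower in SEVO tumours, with a median of -0.60. Of those with some, like *Prc1* and *Numa1*, 50.8% were lower, with a median of -0.01. Of the 7 tested members, 4 had a value of -1 or lower, against 13.9% of all tested genes. The share was 27.0% in protein-coding genes with no such bases and 11.6% in those with some. *Cep41* is not among the 7, since its value comes from the fit without a filter. The list was drawn up with these values known, and *Aspm* and *Racgap1* passed the filter through their CTRL tumours, so these counts are a description. With 3 tumours a side, 0.1 is the smallest two-sided p that exact permutation allows.

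*Ect2*, the exchange factor (ENSMUSG00000027699.19, chromosome 3, 27097222 to 27153878, minus strand), had 31, 14 and 11 reads in CTRL and 4, 5 and 13 reads in SEVO tumours. These were 37.6, 17.6 and 12.6 CPM against 4.60, 5.36 and 14.2 CPM. SEVO tumour 3 lay above CTRL tumour 3, while the other SEVO tumours lay below all CTRL tumours. The log2 fold change was -1.47 (standard error 0.66), with an unadjusted p of 0.0444, an adjusted p of 0.741 from edgeR and an exact two-sided permutation p of 0.2. It was -0.89 without CTRL tumour 1 and -2.09 without SEVO tumour 3.

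*Anln* (ENSMUSG00000036777.8, chromosome 9, 22332012 to 22389188, minus strand), the scaffold of the contractile ring, had 30, 12 and 17 reads in CTRL and 8, 10 and 24 reads in SEVO tumours. In CPM these were 36.4, 15.1 and 19.5 against 9.20, 10.7 and 26.2. SEVO tumour 3 was the second highest of the 6, and the groups overlapped. SEVO minus CTRL was -0.62 on the log2 scale (standard error 0.57), with an adjusted p of 0.765 from edgeR and an exact permutation p of 0.3. It was -0.17 without CTRL tumour 1, -0.28 without SEVO tumour 1, -0.32 without SEVO tumour 2 and -1.18 without SEVO tumour 3, and -0.07 with no filter.

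*Cit* (ENSMUSG00000029516.19, chromosome 5, 115845278 to 116008947, plus strand), the midbody kinase, had 53, 8 and 18 reads in CTRL and 6, 14 and 14 reads in SEVO tumours. In CPM these were 64.3, 10.03 and 20.7 against 6.90, 15.0 and 15.3. CTRL tumour 1 stood apart, and the other 5 tumours lay between 6.90 and 20.7 CPM. SEVO minus CTRL was -1.34 on the log2 scale (standard error 0.65), with an adjusted p of 0.741 from edgeR and an exact permutation p of 0.4. It was -0.30 without CTRL tumour 1 and -1.60 without CTRL tumour 2.

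*Prc1* and *Numa1* were the well counted members, and neither was lower by more than its standard error. *Prc1* (ENSMUSG00000038943.16, chromosome 7, 80294450 to 80316259, plus strand), the microtubule bundler of the midzone, had 53, 56 and 97 reads in CTRL and 92, 111 and 90 reads in SEVO tumours. In CPM these were 64.3, 70.2 and 111 against 106, 119 and 98.2. It alone among the members lay above 0 on the log2 scale, at 0.39 (standard error 0.33), with an adjusted p of 0.748 from edgeR and an exact permutation p of 0.3. Its sign was positive in all 16 alternatives.

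*Numa1* (ENSMUSG00000066306.13, chromosome 7, 101934111 to 102014964, plus strand), the dynein adaptor of the poles, had 91, 56 and 71 reads in CTRL and 78, 59 and 82 reads in SEVO tumours. In CPM these were 110.5, 70.2 and 81.5 against 89.7, 63.3 and 89.4. The groups overlapped, with CTRL tumour 1 above and SEVO tumour 2 below all tumours of the other group. SEVO minus CTRL was -0.11 on the log2 scale (standard error 0.33), with an adjusted p of 0.895 from edgeR and an exact permutation p of 0.7. Its sign turned in 5 of 16 alternatives, among them leaving out CTRL tumour 1 (0.09) or SEVO tumour 2 (0.14).

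**Figure D2:**
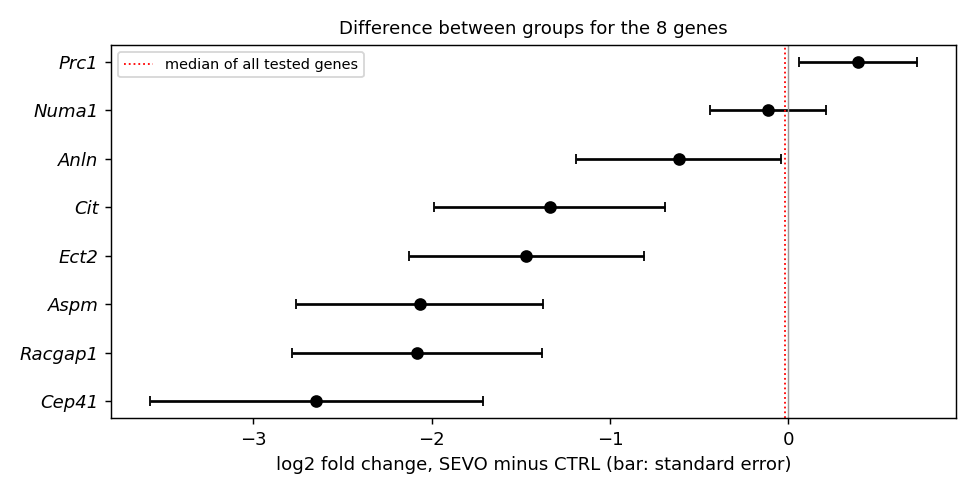
Log2 fold change of SEVO minus CTRL (x axis) for the 8 genes, with standard errors as bars and the median of all 7561 tested genes, -0.02, as the dotted line. *Cep41* (-2.65) is from the fit without a filter, where the median of all genes was -0.38, and is not to be set against the dotted line. The other 7 run from -2.08 for *Racgap1* to 0.39 for *Prc1*.

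Per kilobase of exon, the members fell into a high pair and a low rest. The pair, *Numa1* and *Prc1*, are the only members with exon bases opposite exons of another gene, and the strand of the counts was not tested. These are densities of counted reads with no background taken off, and the density on receptor genes is given below. In CTRL tumours *Numa1* had 11.0 ± 2.62 and *Prc1* 9.97 ± 3.11 CPM per kb (SD, n = 3). They were followed by *Racgap1* (4.21 ± 2.19), *Ect2* (4.20 ± 2.46), *Cep41* (3.40 ± 4.46), *Aspm* (2.81 ± 1.31), *Anln* (2.61 ± 1.24) and *Cit* (1.93 ± 1.75 CPM per kb). Neighbours in this order differed by less than the larger SD of the pair, apart from *Prc1* and *Racgap1*. In SEVO tumours the order was *Prc1* (13.1 ± 1.29), *Numa1* (10.2 ± 1.92), *Anln* (1.70 ± 1.04), *Ect2* (1.49 ± 0.988), *Racgap1* (0.978 ± 0.899), *Cit* (0.755 ± 0.290), *Aspm* (0.657 ± 0.562) and *Cep41* (0.291 ± 0.335 CPM per kb). There the steps from *Prc1* to *Numa1* and from *Numa1* to *Anln* were larger than either SD, and the other neighbours differed by less than the larger SD. In a bulk sample, fewer cells with a transcript and fewer transcripts per cell cannot be told apart.

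The tumours were ranked alike by most members. CTRL tumour 1 was highest in 6 of the 8 genes by CPM, all but *Aspm* and *Prc1*, and it was highest in 34.3% of all tested genes. SEVO tumour 1 was lowest in 6 of the 8, all but *Prc1* and *Numa1*, against 20.3% of all tested genes. These 6 include *Aspm*, *Racgap1* and *Cep41*, listed for a difference between the same groups, so the counts of tumours are a description. None of the 6 has exon bases opposite exons of another gene. Of tested protein-coding genes, 79.6% of those with none were lower in SEVO tumours, against 50.8% of those with some. The same 6 genes had SEVO tumour 3 as the highest of the SEVO tumours, against 42.1% of all tested genes. By the root mean square difference, 9.56% of 7560 genes were closer to *Aspm* than *Ect2* was, 11.5% were closer than *Cit* and 14.5% closer than *Anln*. For *Numa1* the share was 40.4% and for *Prc1* 61.5%. Seen from *Racgap1*, *Aspm* was number 20, and the shares were 7.88% for *Ect2*, 14.0% for *Cit*, 14.1% for *Anln*, 37.4% for *Numa1* and 63.3% for *Prc1*. The likeness includes the difference between the groups that chose *Aspm* and *Racgap1*, so these shares are no independent support.

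The genes nearest to *Aspm* were *Bub3* (distance 0.18), a spindle checkpoint gene with 26, 12 and 28 reads in CTRL and 0, 6 and 11 reads in SEVO tumours, and *Ddx17* (0.31), an RNA helicase gene. *Racgap1*, *Kirrel* (0.31) and the kinase gene *Uhmk1* (0.34) came next. Among the genes nearest to *Racgap1* were 4932438A13Rik (0.23), *Efr3a* (0.23), the giant scaffold gene *Ahnak* (0.25) and the proton pump subunit gene *Atp6v1h* (0.25). Apart from *Bub3* and *Racgap1*, none of those named is chiefly known for mitosis.

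Read density on genes with no known role in this tissue was compared with that of the members. A sum over 1458 olfactory and vomeronasal receptor genes, which tumour tissue is not known to use widely, gave 1.30, 0.0756 and 0.589 reads per kb of exon in CTRL tumours 1 to 3 and 0.184, 0.210 and 0.397 reads per kb in SEVO tumours 1 to 3. CTRL tumours 1 and 3 were the highest, followed by SEVO tumour 3, and the same 3 tumours had the largest shares of Gm10800 and Gm10801. CTRL tumour 2 had the lowest density of all 6, below every SEVO tumour. *Aspm*, *Racgap1*, *Ect2* and *Anln* had more reads per kb in CTRL tumour 2 than in SEVO tumours 1 and 2. Against SEVO tumour 3 the order was the other way, with fewer reads per kb in CTRL tumour 2 for every member but *Ect2*. For *Aspm* the raw density was 2.20, 13.7 and 5.42 times that of the receptor genes in the CTRL tumours and 0.468, 2.87 and 2.82 times in the SEVO tumours. At the receptor density, 15.0 reads would fall on *Aspm* in CTRL tumour 1, where 33 were counted, and 2.14 in SEVO tumour 1, where 1 was counted. *Aspm*, *Racgap1*, *Cep41* and *Cit* were below 2 times this level in at least 1 tumour. *Cep41* ranged from 0 to 5.42 times, *Racgap1* from 1.53 to 18.7 times and *Cit* from 1.86 to 6.45 times. *Prc1* and *Numa1* stood from 4.97 to 93.5 times above it. With the log2 receptor density as a covariate, the log2 fold changes were -1.70 for *Aspm*, -1.62 for *Racgap1*, -1.48 for *Cep41*, -1.24 for *Ect2*, -0.58 for *Cit*, -0.32 for *Anln*, -0.00 for *Numa1* and 0.40 for *Prc1*. The part that background reads have in the difference between the groups was not tested further.

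**Figure D3:**
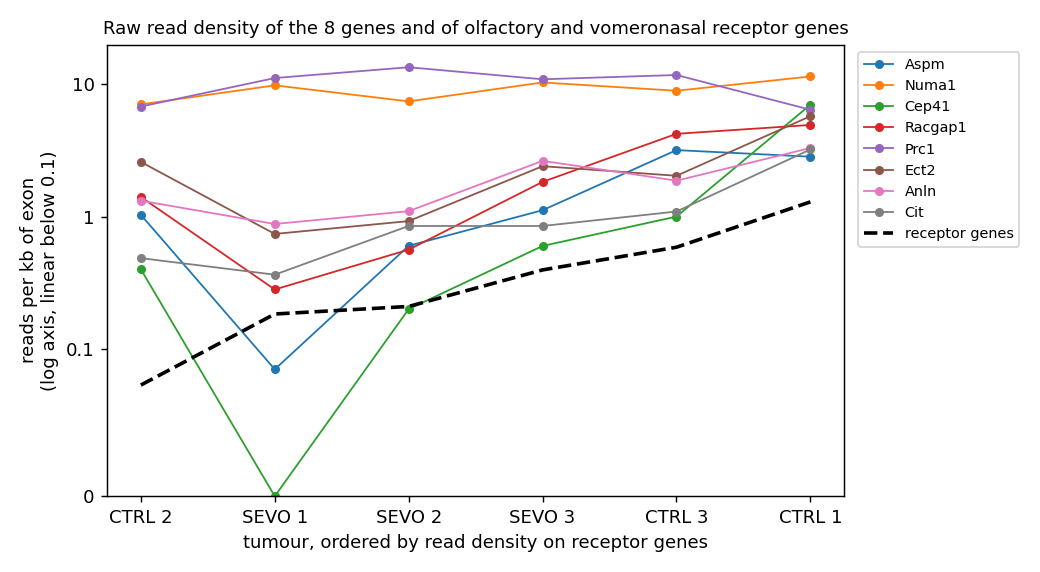
Raw reads per kb of exon (y axis, logarithmic above 0.1) for the 8 genes, with the tumours ordered along the x axis by the density on receptor genes (dashed line), from 0.0756 in CTRL tumour 2 to 1.30 in CTRL tumour 1. *Prc1* and *Numa1* stay near the top at all densities. The other 6 are all lower in SEVO tumour 1 than in CTRL tumour 2, where the dashed line is lowest. In SEVO tumour 3 all of these 6 but *Ect2* are higher than in CTRL tumour 2. From SEVO tumour 1 to CTRL tumour 1 these 6 end higher than they began, as does the dashed line.

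On the strand of the counted reads, the light-strand gene mt-Nd6 had 5.31 to 12.5 times the read density of the median of the other 12 mitochondrial protein genes, although the latter are the abundant transcripts in most tissues. Among the members, *Prc1* and *Numa1* alone have exon bases opposite exons of another gene. In *Prc1* 911 of 8225 exon bases lie opposite *Rccd1*, which had 325, 745 and 547 reads in CTRL and 983, 795 and 650 reads in SEVO tumours. In *Numa1* 80 of 7919 exon bases lie opposite *Il18bp*, which had 36, 85 and 60 reads in CTRL and 90, 129 and 85 reads in SEVO tumours. How the reads of these pairs divide between the strands was not tested. Of the 5 tested members with no such bases, *Aspm* and *Racgap1* were chosen for their lower values, and the partners *Ect2*, *Anln* and *Cit* had the values given above. Of the 2752 tested protein-coding genes with none, 79.6% were lower in SEVO tumours, with a median of -0.60, and 27.0% had a value of -1 or lower. Of the 2479 with some, 50.8% were lower, with a median of -0.01.

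Other genes of cell division were counted in 4 lists chosen by function. None of their 44 tested genes passed the adjusted threshold (0% of all tested genes) or the study's thresholds (1.04%) in either direction. In 3 of the 44 the SEVO tumours lay below all CTRL tumours in CPM, against 4.39% of all tested genes. These 3, *Kif20b*, *Sept11* and *Chmp4b*, were named after their values were seen. The lists had medians below that of all tested genes (-0.02), and each is set beside the 51.1% of all genes with a value below 0. Tested protein-coding genes with no exon bases opposite another gene had a median of -0.60, and those with some had -0.01. Of the central spindle list, which holds the kinesin partner of *Racgap1*, 9 of 13 genes were tested, 8 lower and 1 higher, with a median of -0.97. *Kif23* itself had 34, 5 and 23 reads in CTRL and 3, 8 and 17 reads in SEVO tumours, with overlapping groups and a difference of -1.26 on the log2 scale (standard error 0.73), at an adjusted p of 0.741 from edgeR. *Clasp1*, a microtubule plus-end gene, had -0.97 and the spindle gene *Nusap1* -0.22, while *Kif20a*, a midzone kinesin gene with 1066 reads over the 6 tumours, had 0.44.

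Of the spindle pole and centrosome list, 13 of 22 genes were tested, 8 lower and 5 higher, with a median of -0.56. Among the best counted were *Gpsm2*, which anchors NuMA at the cortex, at 0.28, and *Cep290* at 0.10. Of the contractile ring and abscission list, 13 of 22 were tested, 11 lower and 2 higher, with a median of -0.55. The ring myosin genes *Myh9* and *Myh10* had -0.27 and 0.31, and *Vps4a*, an ATPase of abscission, had 0.11. Of the mitotic transcripts, 9 of 20 were tested, 7 lower and 2 higher, with a median of -0.46. The proliferation marker *Mki67* had 91, 68 and 79 reads in CTRL and 36, 40 and 114 reads in SEVO tumours, with SEVO tumour 3 the highest of all 6. Its difference on the log2 scale was -0.46 (standard error 0.42), at an adjusted p of 0.765 from edgeR. *Top2a*, the mitotic topoisomerase, had -0.81 (standard error 0.41), at an adjusted p of 0.741 from edgeR, and *Ncapg* (0.01) and *Ccna2* (0.36), the 2 best counted of the list, were not lower. *Kif20a*, *Gpsm2*, *Ncapg* and *Ccna2* have exon bases opposite another gene, as has *Nusap1* (-0.22), while *Kif23*, *Clasp1*, *Mki67* and *Top2a* have none, nor has *Myh10* (0.31).

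**Figure D4:**
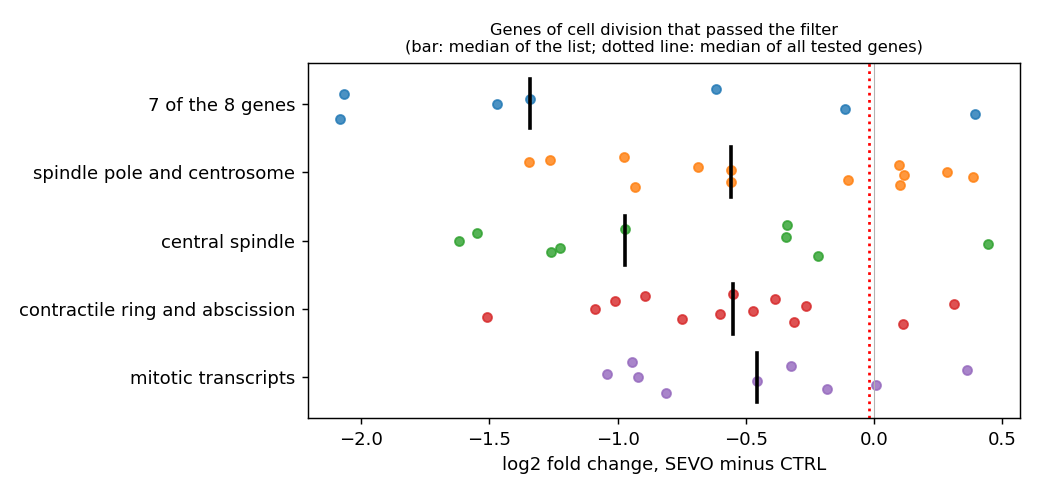
Log2 fold change of SEVO minus CTRL (x axis) for each gene that passed the filter, for 7 of the 8 genes and for the 4 lists of cell division genes (rows), with the median of each row as a black bar and that of all tested genes, -0.02, as the dotted line. Every row has its median to the left of the dotted line and at least 1 gene to its right.

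Markers of cell types were compared in the same tumours. The summed CPM of 7 melanocyte markers, of which 7 were tested and 7 had values below 0, ranged from 1206 to 1279 in CTRL and from 592 to 1642 in SEVO tumours, with SEVO tumour 3 the highest. The 3 endothelial markers summed to 11.3 to 81.3 CPM in CTRL and 7.51 to 34.9 CPM in SEVO tumours, and the 5 fibroblast markers to 31.4 to 144 and 15.0 to 60.0 CPM. In each of these lists SEVO tumour 3 was the highest of the SEVO tumours, as it was for the 6 members named above. The same held for T and NK cell and erythroid markers, but not for monocyte and macrophage or keratinocyte markers. CTRL tumour 1 was the highest for endothelial, fibroblast, T and NK cell and keratinocyte markers. Only 1 of 3 endothelial, 1 of 5 fibroblast, 1 of 5 T and NK cell, 1 of 2 erythroid and 0 of 2 keratinocyte markers passed the filter on low counts. The 10 monocyte and macrophage markers summed to 200.3 to 279.7 CPM in CTRL and 227 to 321 CPM in SEVO tumours. Most of this came from 1 gene, *Csf1r*, at 107 to 262 CPM in CTRL and 192 to 296 CPM in SEVO tumours. All markers of that list but *Csf1r* and *Cd68* failed the filter on low counts. The 5 T and NK cell markers summed to 7.53 to 68.0 CPM in CTRL and 26.4 to 29.4 CPM in SEVO tumours. For the 2 erythroid markers the ranges were 18.4 to 108 and 21.8 to 90.5 CPM, and for the 2 keratinocyte markers 0 to 19.4 and 2.18 to 6.44 CPM. No marker was at 0 reads over all 6 tumours. The part of cell composition in the members' differences was not tested.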

How the data were processed

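RNA-seq counts of 6 tumours (3 CTRL, 3 SEVO) were analysed. As deposited, each gene has a raw count of reads, not normalized. The authors removed ribosomal reads with SortMeRNA, trimmed with Trimmomatic 0.36, aligned with STAR 2.6.0c to GRCm38.p6, handled alignments with SAMtools 1.8.3 and counted unique reads with HTSeq 0.9.1 on GENCODE M17 (versions per the submitters' processing notes). Tally rows were left out of library sizes. Of 53801 gene identifiers, 53706 were matched without version to GENCODE M21 on the same build for names, merged exons and strand.

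Groups were compared with edgeR 4.0.16 in R 4.3.3 (TMM, filterByExpr, quasi-likelihood test, Benjamini-Hochberg adjustment over all 7561 tested genes). *Cep41* was taken from the fit on all 42423 genes with at least 1 read, except per kilobase, where it was scaled with the tested genes. Log2 CPM used a prior count of 2. Standard errors were derived from the F statistic. Alternatives changed scaling, filter, dispersion, tool (DESeq2 1.42.0), pairing or left out each tumour. The scripts were checked on simulated counts. Exact permutation tests used log2 CPM over every split of the 6 tumours. Promoters are from RefSeq, and all 8 members matched.

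The members, lists and receptor genes were chosen with earlier results of these counts known. Genes named besides the members are the 3 with the most reads in each list and any past the study's thresholds, *Kif23*, *Mki67* and *Top2a*, and the 5 nearest to *Aspm* and to *Racgap1*. Of these, 2 are not reported here. *Rccd1*, *Il18bp*, mt-Nd6, Gm10800 and Gm10801 were named after their values were seen.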

Additional observations from a re-analysis of the deposited data

How the results depend on the processing

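The number of all tested genes with an adjusted p under 0.05 in edgeR was 0 (330 at an unadjusted p under 0.05), 1 with the replicate block, 0 with DESeq2 (265 at an unadjusted p under 0.05) and 0 to 31 with a tumour left out, the highest without CTRL tumour 2. At the study's thresholds it was 79, and 266 with no filter on low counts, 49 with DESeq2, 129 with the replicate block, 52 with uniquely aligned reads as library size, 150 with the receptor gene covariate and 13 to 1449 with a tumour left out, the lowest without SEVO tumour 1 and the highest without CTRL tumour 2. The last 2 alternatives with all tumours were chosen after seeing the data. With at least 10 reads in every tumour, *Numa1* and *Prc1* alone of the members were left, so 1 of 8 members and 1 of 5 partners could be counted as lower, in place of 7 and 4. *Numa1* turned to 0.18 with library size only, 0.42 with no filter and 0.25 with DESeq2 (the median of all genes moved too, below), and lay at -0.14 to 0.14 with a tumour left out, positive without CTRL tumour 1 and without SEVO tumour 2. *Cep41* was -1.48 with the receptor gene covariate and -3.75 to -1.28 with a tumour left out, and *Racgap1* -3.07 to -1.60. The cause of these changes was not tested. *Aspm*, *Racgap1*, *Cep41*, *Ect2*, *Anln* and *Cit* stayed below 0 in all 15 alternatives that gave a value, and no partner passed an adjusted p of 0.05 in any. The lowest was 0.0894, for *Cit* without CTRL tumour 2. At the study's thresholds 2 partners passed in 1 alternative each. *Cit* did so without CTRL tumour 2 (-1.60, unadjusted p of 0.00537 from edgeR), where 1449 of 8961 genes passed. *Ect2* did so without SEVO tumour 3 (-2.09, unadjusted p of 0.0176 from edgeR), where 479 of 8383 genes passed. The median of all genes was -0.02, and it moved to 0.22 with library size only, -0.23 with uniquely aligned reads, -0.38 with no filter and -0.55 with DESeq2. With a prior count of 0.5 the distance between *Aspm* and *Racgap1* was 0.45, in place of 0.31. The deviations of CTRL and SEVO tumours with the same number correlated at -0.40, 0.32 and 0.08, and no source pairs them. The replicate block gave log2 fold changes of -1.45 for *Ect2*, -0.64 for *Anln*, -1.002 for *Cit*, 0.43 for *Prc1* and -0.11 for *Numa1*, with no change of call. Counts under 20 reads in 4 or 5 of the 6 tumours, in 6 of the members, limit what these libraries can show.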

Other observations

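Over the 4 lists of cell division genes, 28 tested genes have no exon bases opposite another gene, and 26 of them had values below 0, with a median log2 fold change of -0.93. The 16 with such bases divided evenly, 8 below 0, with a median of -0.05. The first had a median of 101.5 reads over the 6 tumours and the second 242.5. Over all tested genes the same split gave medians of -0.31 (3688 genes) and 0.14 (3869 genes). Over tested protein-coding genes it gave -0.60 (2752 genes, 79.6% below 0) and -0.01 (2479 genes, 50.8% below 0).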
